A study of Mus musculus with 6 samples.

Results

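The 200 brightest circular RNA (circRNA) probes were examined in cultured mouse muscle cells, out of 14236 circRNA probes on the array. Of those 14236, 8906 had a usable spot well above background on all 6 arrays, and the 200 were chosen by the highest mean level over both groups. Total RNA came from C2C12 cells, mouse myoblasts of an established line, which fuse into myotubes when serum is lowered and had been differentiated in this way. The control group of 3 samples received no treatment. The other group of 3 samples received 200 µM cobalt chloride (CoCl2) for 48 h before collection, and the series concerns the toxicity of this compound to the cells. Each sample was hybridised to its own 1-colour array. The labels call the experiments of each group independent but do not describe separate cultures further, so the spread between arrays may be partly technical.

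A circRNA forms when the splicing machinery joins the end of an exon back to the start of the same or an earlier exon, which leaves a closed loop. Without free ends such a loop is protected from the exonucleases that degrade linear messages, and many circRNAs therefore build up in cells that divide rarely, such as neurons and muscle fibres. Cobalt ions block the enzymes that mark the transcription factor HIF-1α for degradation, which is why CoCl2 is used to mimic low oxygen.

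The probes carry only the array designer's codes, which begin with ASCRP. No source used here pairs a code with a circRNA name, a host gene, a position or a sequence, so the myotube identity of the cells could not be checked on marker genes and no role is given for any probe. The sources used here do not say whether linear RNA was removed before labelling. The order of the 200 is one of signal. Probes differ in how well they bind their target, so the order is not one of RNA copies, and "most abundant" would go beyond these data.

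A level is the log2 processed signal of a probe less the 75th percentile of all circRNA probes on the same array, so that a level of 0 marks that percentile. The mean level chose the probes and is given as a description. It ran from 11.13 for the brightest to 4.24 for rank 200, with a median of 5.17. Only 5 probes had a mean level of 10 or more, 22 lay between 8 and 10, 28 between 6 and 8, and 145 between 4 and 6. The bright end was therefore a small group above a long, flat shoulder. At the edge, the last 2 probes inside (ASCRP4004314 and ASCRP4004870) both had a mean level of 4.24, and the first 2 outside (ASCRP4003894 and ASCRP4006307) had 4.24 and 4.23. Membership near rank 200 was thus decided by differences far below the replicate spread. No probe with usable spots but without full detection was bright enough to enter. Of 37 probes set aside for an outlier spot on some array, 6 had a mean level on their remaining arrays above that of rank 200.

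**Figure D1:**
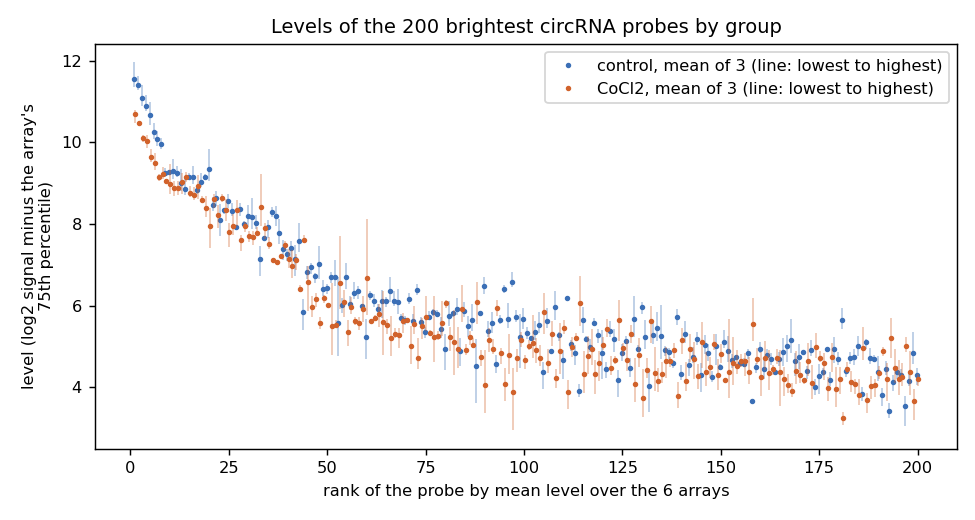
Level of each of the 200 probes (log2 signal relative to the 75th percentile of its array) against its rank by mean level. Points are the mean of 3 control (blue) or 3 CoCl2 (orange) arrays and lines run from the lowest to the highest array; the steep part ends near rank 50, at a mean level of 6.23, and at most of the leading ranks the CoCl2 points lie below the control points.

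The leading probes kept their places on every array. ASCRP4004008 ranked 1 and ASCRP4006342 ranked 2 on all 6 arrays, and ASCRP4007626 and ASCRP4011502 held ranks 5 and 6 on all 6. ASCRP4006710 and ASCRP4013042 held ranks 3 and 4, in exchanged order on the array of CoCl2 replicate 1 alone. Further down the order was looser. Of the 200 probes, 112 were among the top 200 on all 6 arrays, 31 on 5 arrays, 52 on 3 or 4, and 5 on 1 or 2. A single array's own top 200 held 173, 184 and 179 of them in control and 153, 166 and 167 in CoCl2. The lowest place that any of the 200 took on an array was 617, on that of CoCl2 replicate 1. Among the 8906 probes, a choice by the control mean alone gave 182 of the same 200 probes, a choice by the CoCl2 mean gave 168, and 152 were common to all 3 lists. Across the 200 probes the levels of pairs of arrays correlated at r of 0.973 to 0.990 within control, 0.941 to 0.960 within CoCl2 and 0.797 to 0.897 between the groups. Over all 8906 probes r was 0.970 to 0.984 within control, 0.954 to 0.965 within CoCl2 and 0.870 to 0.929 between the groups. These correlations run across probes, which are not independent replicates, and the 200 were selected for a high mean.

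The unscaled signal of the brightest probe, ASCRP4004008, was 149852, 138514 and 147397 intensity units on the control arrays and 147398, 136282 and 179747 on the CoCl2 arrays. The groups overlapped, with CoCl2 replicate 3 as the highest value. ASCRP4006342 gave 118808, 132120 and 138316 units in control and 122453, 112241 and 169703 in CoCl2. ASCRP4006710 gave 102310, 101789 and 108388 in control and 85366, 88833 and 144202 in CoCl2. In all 3 probes the range of the CoCl2 arrays enclosed that of the control arrays. None of the 200 probes had a spot flagged as saturated, and the brightest raw spot reached 24.1% of the scanner's saturation value, on the array of CoCl2 replicate 3.

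The 200 probes held most of the circRNA signal on every array, and a smaller part of it after CoCl2. Their share of the summed processed signal of all circRNA probes was 71.5%, 65.4% and 66.3% on the control arrays and 58.9%, 60.2% and 59.7% on the CoCl2 arrays. Every CoCl2 array lay below every control array. The mean was 67.8% ± 3.31 for control and 59.6% ± 0.632 for CoCl2 (SD, n = 3 each), a difference of -8.13 percentage points (exact two-sided permutation p = 0.1, the smallest that 3 arrays against 3 can give). Without control replicate 1, the array with the highest share, the difference was -6.24, and within the 5 arrays that share a scan time it was -8.18.

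The difference in share lay in the first few ranks. A share depends on the total as well, and the summed unscaled signal of the probes outside the 200 was 1.95-fold that of control. Ranks 1 to 10 held 34.9%, 29.9% and 30.2% of the signal on the control arrays and 21.5%, 22.9% and 22.6% on the CoCl2 arrays (exact two-sided permutation p = 0.1). Ranks 11 to 50 held 24.2% ± 0.982 in control and 25.2% ± 0.394 in CoCl2 (SD, n = 3 each, exact two-sided permutation p = 0.2). Ranks 51 to 200 held 11.9% ± 0.412 and 12.1% ± 0.397 (SD, n = 3 each, exact two-sided permutation p = 0.7). Of these bands only the first differed without overlap between the groups. In control 25, 35 and 34 probes sufficed for 50% of the circRNA signal of an array, and in CoCl2 53, 54 and 50 were needed (exact two-sided permutation p = 0.1). Circular RNA signal was thus spread over more probes on each CoCl2 array than on any control array.

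**Figure D2:**
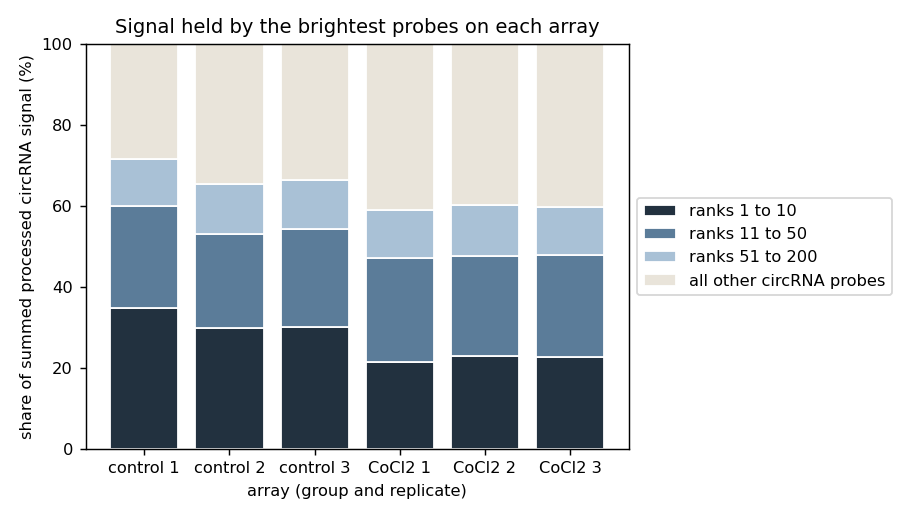
Share (%) of the summed processed circRNA signal on each array that was held by ranks 1 to 10, 11 to 50 and 51 to 200 and by all other circRNA probes. The darkest segment holds 29.9% or more on the control arrays and 22.9% or less on the CoCl2 arrays, while the middle segments differ little.

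The CoCl2 arrays were brighter as a whole, which bears on every scaled value of these probes. Summed over the 10 brightest probes, the unscaled signal was 1.12-fold that of control (exact two-sided permutation p = 0.9), over all 200 it was 1.39-fold, and over the remaining circRNA probes 1.95-fold (exact two-sided permutation p = 0.1 for both). Without CoCl2 replicate 3 these ratios were 0.933, 1.17 and 1.65, so that for the 10 brightest probes this array alone set the direction. The signal at the 75th percentile was 37.6, 53.2 and 55.0 units on the control arrays and 82.7, 77.0 and 125 units on the CoCl2 arrays. The median unscaled log2 change was 0.92 over all tested probes, 0.53 over the 200 and 0.085 over the 10 brightest. The smaller unscaled difference of the brightest probes therefore became a lower level once each array was set to its own 75th percentile. What part the difference in brightness has in the scaled results was not tested.

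Setting CoCl2 against control asks which circRNAs differ between exposed and untreated myotubes. Relative to the 75th percentile, the bright probes were more often lower than higher in CoCl2. The limma test was run over 11038 circRNA probes that were detected, that is well above background, on 3 or more arrays. At an adjusted p under 0.05 (Benjamini-Hochberg), 56 of the 200 (28%) were lower and 20 (10%) were higher. Over all tested probes 11.2% were called lower and 12.8% higher, and over those well above background on all 6 arrays 12.5% and 10.8%. In this scaling the share of lower calls among the 200 was above the background and the share of higher calls was close to it. In the reported scaling the other 124 probes did not pass. With normexp background correction and the 75th percentile the order turned round. Of the 200, 21.5% were then lower against 27.6% of all tested probes, and 24% were higher against 1216 of the 11038 tested probes. Normexp was run with an added offset of 50 units. The processed signal at the 75th percentile was 37.6 to 55.0 units in control and 77.0 to 125 in CoCl2. What part the offset has in this result was not tested. The median log2 change, CoCl2 minus control, was -0.42 over the 200, with quartiles of -0.84 and 0.0798, against -0.037 over all tested probes. The choice by the mean of both groups does not use this difference. Higher calls made up 26.3% of the calls among the 200 in this scaling, 44.2% after quantile normalization (23 higher and 29 lower), 52.7% in the setting with normexp (48 and 43) and 88.3% without scaling (53 and 7). After quantile normalization 11.5% of the 200 were higher and 14.5% lower, against 11.8% and 11.5% of all tested probes. Without scaling these shares were 26.5% and 3.5%, against 44.4% and 0.915%. Leaving out 1 array lowered some counts by more than 1.5 times, given here as shares of the 200 against shares of all tested probes. Without control replicate 1, 21 were lower (10.5% against 5.42%). Without control replicate 2, 13 were higher (6.5% against 8.54%) and 37 lower (18.5% against 5.93%). Without control replicate 3, 12 were higher (6% against 9.03%) and 34 lower (17% against 5.91%). Without CoCl2 replicate 1, 10 were higher (5% against 6.92%) and 31 lower (15.5% against 5.97%). Without CoCl2 replicate 3, the array with its own scan time, 20 were higher (10% against 11.9%) and 50 lower (25% against 11.3%).

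In all 76 called probes the levels of the groups did not overlap. A call with 3 arrays against 3 favours such separation, so this adds no separate support to the calls. For the 200 as a whole, the 3 CoCl2 levels lay below the 3 control levels in 92 probes (46%) and above them in 29 (14.5%), where the tested probes gave 22.8% below and 22.0% above. On the unscaled signal, CoCl2 lay above control without overlap in 96 of the 200 (48%) and below it in 10, where the tested probes gave 58.6% and 1.14%. The 20 probes called higher also had non-overlapping higher unscaled signals, with unscaled log2 changes of 1.78 to 3.11. Of the 56 called lower, 10 had non-overlapping lower unscaled signals, and 19 had an unscaled change above 0. In the other 46 the unscaled signals of the groups overlapped, which with 3 arrays against 3 does not show that a probe's own signal was unchanged. ASCRP4010655 overlapped in this way and was still called lower without scaling (log2 change -1.49, limma adjusted p = 0.0208). Of the 56, 7 were also called lower without scaling.

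**Figure D3:**
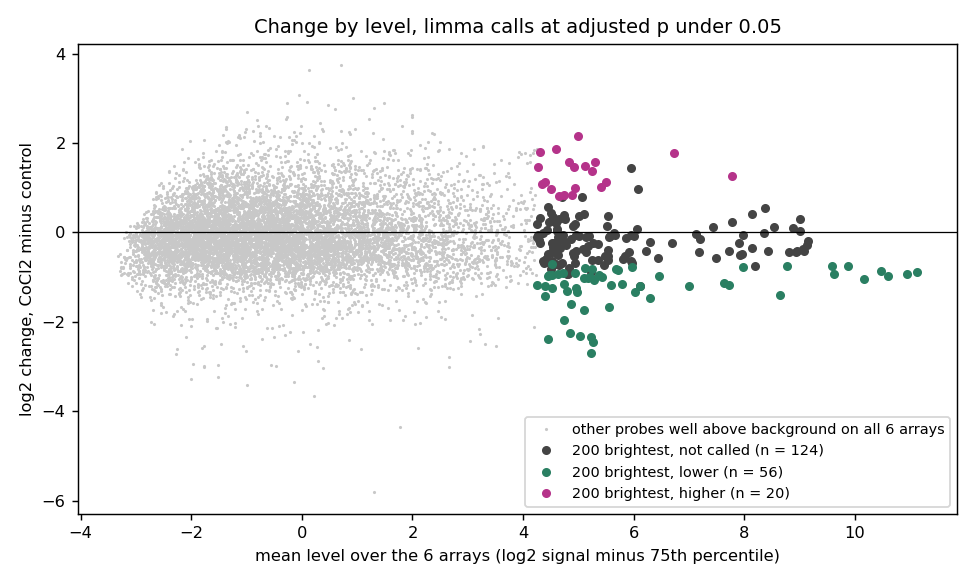
Log2 change (CoCl2 minus control, relative to the 75th percentile) against mean level for the 8906 probes well above background on all 6 arrays; grey points are probes outside the 200 and coloured points are the 200 by their limma call. The 56 lower calls extend to the highest levels, and no higher call lies at a mean level of 8 or more.

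The calls were counted along the rank order. Ranks 1 to 50 held 2 higher and 16 lower calls, ranks 51 to 100 held 4 and 17, ranks 101 to 150 held 8 and 13, and ranks 151 to 200 held 6 and 10. The next 200 probes in order held 27 higher (13.5%) and 26 lower (13%), close to the background. All 5 probes with a mean level of 10 or more were called lower, and of the 22 between 8 and 10, 5 were called lower and 0 higher. Median log2 changes in the 4 bands of 50 were -0.42, -0.60, -0.33 and -0.23. Differences between the bands were not tested.

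The 10 brightest probes were lower together when scaled. Their fitted log2 changes ran from -1.03 to -0.20, 8 of the 10 were called lower, and 9 of the 10 had non-overlapping lower levels. ASCRP4004008 had levels of 11.96, 11.35 and 11.39 in control and 10.80, 10.79 and 10.49 in CoCl2. Its log2 change was -0.87 (SE 0.25, adjusted p = 0.0341 by limma). ASCRP4006342 had 11.63, 11.28 and 11.30 in control and 10.53, 10.51 and 10.40 in CoCl2, and its log2 change was -0.92 (SE 0.21, adjusted p = 0.0176 by limma). Both probes were highest on control replicate 1, which was also the dimmest array. The largest change among the first 6 was that of ASCRP4007626, from 10.99, 10.43 and 10.61 in control to 9.57, 9.52 and 9.85 in CoCl2. It was lower by 2.04-fold (log2 change -1.03, SE 0.24, limma adjusted p = 0.0166). For ASCRP4006710, ASCRP4013042 and ASCRP4011502 the log2 changes were -0.97, -0.86 and -0.75. None of these 6 was lower on the unscaled signal without overlap. Their unscaled log2 changes ran from -0.077 for ASCRP4007626 to 0.21 for ASCRP4011502. Quantile normalization gives equal ranks equal values, so it sets the changes of probes with fixed ranks, such as these, to about 0 by construction and is no check on them. All 6 passed with median scaling. With normexp and the 75th percentile, and in the scaled deposited table, 5 of the 6 passed, with ASCRP4011502 as the exception (limma adjusted p = 0.253 and 0.0576). With an ordinary test per probe only ASCRP4006342 passed (adjusted p = 0.0365). Without a filter on dim probes ASCRP4004008, ASCRP4013042 and ASCRP4011502 missed the threshold (limma adjusted p = 0.0666, 0.0542 and 0.0789). ASCRP4004008 lost its call without any 1 of the 6 arrays, at limma adjusted p of 0.0585 to 0.103. ASCRP4006342 lost it without control replicate 1 (limma adjusted p = 0.0580), and ASCRP4006710 and ASCRP4007626 without control replicate 1 (limma adjusted p = 0.0591 and 0.0548) or CoCl2 replicate 1 (0.0542 and 0.0506). ASCRP4013042 kept its call only without CoCl2 replicate 1, and ASCRP4011502 only without CoCl2 replicate 3.

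The remaining probes of the leading 10 that did not pass were ASCRP4006650 and ASCRP4010888, at ranks 9 and 10, named here after their values were seen. ASCRP4006650 had levels of 9.37, 9.22 and 9.15 in control and 9.11, 8.98 and 9.06 in CoCl2, a log2 change of -0.20 with a 95% interval of -0.66 to 0.27. Its unscaled signal was 24906, 31663 and 31232 units in control and 45659, 38837 and 67105 in CoCl2, with no overlap.

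Large changes in both directions were present below the leading ranks. Of the 200 probes, 15 were called higher and 31 lower by at least 2-fold, against 9.70% and 6.39% of the tested probes. At 4-fold there were 1 higher and 6 lower, against 1.49% and 0.888% of the tested probes. Among called probes the median change was 2.49-fold for the higher and 2.07-fold for the lower.

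The largest rise among the 200 was that of ASCRP4011603, at rank 114. Its unscaled signal was 509, 895 and 812 units on the control arrays and 8762, 4800 and 5661 on the CoCl2 arrays, and its levels were 3.76, 4.07 and 3.88 in control and 6.73, 5.96 and 5.50 in CoCl2. Every CoCl2 value was well above every control value on both scales. The rise was 4.46-fold (log2 change 2.16, SE 0.32, limma adjusted p = 0.00347). The probe moved from ranks 313, 255 and 279 on the control arrays to ranks 45, 53 and 71 on the CoCl2 arrays. ASCRP4000473, at rank 158, gave 493, 668 and 678 units in control and 6056, 2677 and 4960 in CoCl2. Its levels were 3.71, 3.65 and 3.62 in control and 6.19, 5.12 and 5.31 in CoCl2, and it rose 3.67-fold (log2 change 1.88, SE 0.30, limma adjusted p = 0.00451). In both probes the 3 control arrays lay close together and CoCl2 replicate 1 gave the highest level.

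The next 10 rises by size had log2 changes of 1.13 to 1.79, or 2.19-fold to 3.46-fold. The 12 largest rises lay at ranks 33 to 197, and their unscaled log2 changes ran from 2.08 to 3.11. Their adjusted p values in the limma fit were 0.00323 to 0.0371.

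The largest fall was that of ASCRP4002894, at rank 97. Its unscaled signal was 4245, 4630 and 4821 units on the control arrays and 634, 1412 and 2781 on the CoCl2 arrays. Its levels were 6.82, 6.44 and 6.45 in control and 2.94, 4.20 and 4.47 in CoCl2, so that the groups stood apart on both scales and the CoCl2 arrays varied among themselves. The fall was 6.52-fold (log2 change -2.70, SE 0.38, limma adjusted p = 0.00318). On single arrays the probe ranked 48, 52 and 53 in control and 617, 211 and 180 in CoCl2. ASCRP4010655, at rank 90, gave 3332, 4162 and 5686 units in control and 859, 1102 and 3765 in CoCl2. Its levels were 6.47, 6.29 and 6.69 in control and 3.38, 3.84 and 4.91 in CoCl2, and it fell 5.44-fold (log2 change -2.44, SE 0.37, limma adjusted p = 0.00381). On the unscaled signal its groups overlapped, because CoCl2 replicate 3 reached 3765 units where control replicate 1 had 3332.

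The next 10 falls by size had log2 changes of -2.39 to -1.42, or 2.67-fold to 5.24-fold. The 12 largest falls lay at ranks 48 to 187, with adjusted p values of 0.00129 to 0.0157 in the limma fit. All 12 also had unscaled log2 changes below 0, from -1.75 to -0.46, but in several of them, ASCRP4010655 included, the unscaled groups overlapped.

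**Figure D4:**
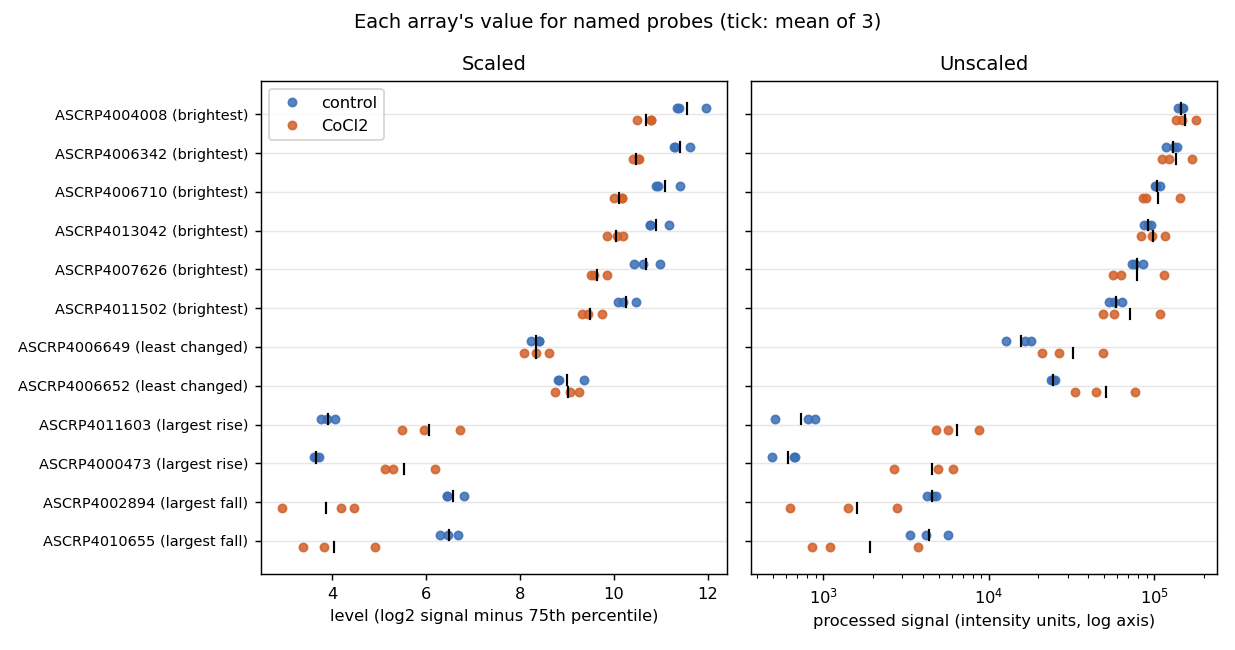
Values on each array for the first 6 probes by level, the 2 with the smallest change among the first 50, the 2 largest rises and the 2 largest falls, as scaled levels (left) and unscaled signal on a log axis (right), with ticks at the mean of 3. The first 6 separate by group on the left and overlap on the right, and both rises separate on both sides.

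The smallest changes among the first 50 ranks were those of ASCRP4006649 and ASCRP4006652. ASCRP4006649, at rank 24, had levels of 8.40, 8.40 and 8.24 in control and 8.34, 8.08 and 8.61 in CoCl2, and its log2 change was -0.0034 with a 95% interval of -0.52 to 0.51. ASCRP4006652, at rank 13, had levels of 9.35, 8.82 and 8.83 in control and 9.07, 8.75 and 9.25 in CoCl2, a log2 change of 0.023 with a 95% interval of -0.55 to 0.59. The intervals leave room for changes of either sign. Unscaled, both probes were higher on every CoCl2 array than on any control array, by log2 changes of 0.95 and 0.98.

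**Figure D5:**
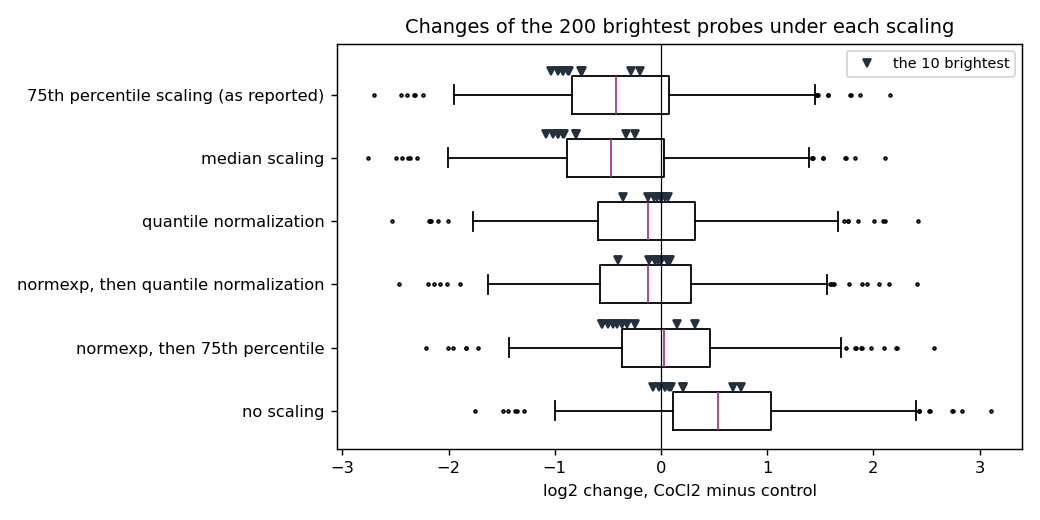
Log2 changes (CoCl2 minus control) of the 200 probes under 6 ways of scaling or background correction; boxes span the quartiles around the median, whiskers reach 1.5 times the box length and triangles mark the 10 brightest probes. The median moves from -0.47 with median scaling to 0.53 without scaling, and the 10 brightest move from a median of -0.92 to 0.085. Over all tested probes the median was -0.087 with median scaling and 0.92 without scaling.

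The bright probes were measured with a spread close to that of other detected probes. The median within-group SD was 0.26 on the log2 scale for the 200 and 0.29 for the other 8706 probes well above background on all 6 arrays. It was 0.21 for ranks 1 to 50 and 0.29 for ranks 151 to 200. In 126 of the 200 probes the SD was larger among the CoCl2 arrays than among the control arrays. This was not particular to the 200. The median SD was 0.195 in control and 0.267 in CoCl2 for the 200, and 0.211 and 0.309 for the other 8706 probes. For ranks 1 to 50 it was 0.195 in control and 0.174 in CoCl2. Control replicate 1 gave the highest of the 3 control levels in 116 of the 200.

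A few of the 200 varied widely between replicates, and they are named here after their values were seen. ASCRP4001750, at rank 60, had levels of 5.32, 4.69 and 5.66 in control and 6.11, 8.12 and 5.78 in CoCl2. CoCl2 replicate 2 stood far above the other CoCl2 arrays, and the probe did not pass (limma adjusted p = 0.0906). ASCRP4006837, at rank 53, had the widest pooled SD of the 200, at 0.99. Its levels were 4.77, 5.29 and 6.69 in control and 6.08, 5.90 and 7.70 in CoCl2, so that replicate 3 was the highest in each group and the groups overlapped (limma adjusted p = 0.242).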

How the data were processed

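The authors obtained the intensity of each spot from 1-colour arrays in Feature Extraction 11.0.1.1 (Agilent), per the file headers. The processed signal is background-subtracted within each array and not scaled between arrays. Each circRNA probe has 1 spot. The deposited table of 11128 probes holds the raw median spot intensity (100% of values equal, tolerance 0). Other deposited columns used were the median spot and background intensities and flags of 0 or 1. The normexp settings used these intensities with an offset of 50 units. The saturation value came from the same scanner output.

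Groups and replicate numbers come from the sample titles. Outlier-flagged spots were dropped, log2 signals were scaled to each array's 75th percentile over all circRNA probes, and CoCl2 was compared with control by limma 3.58.1 (lmFit, eBayes; R 4.3.3) over 11038 probes, without covariates, with Benjamini-Hochberg adjustment. The script was tested on simulated data. The number of arrays limits precision. The 200 probes, the naming rule (the first 6 by level, the largest rises and falls among non-overlapping calls, the least changed of the first 50) and the alternatives were chosen with earlier results of these data known. Since no source used here names the probes, 2 rises and 2 falls are printed by code, and lists of muscle, fibroblast and hypoxia host genes were not run. CoCl2 replicate 3 has its own scan time and the other 5 arrays share one. Arrays of the same number did not deviate together (r of -0.013, -0.11 and 0.083 for deviations around the group mean), and no pairing was used.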

Additional observations from a re-analysis of the deposited data

How the results depend on the processing

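Among the 200 probes 20 were higher and 56 lower as reported. Lower calls numbered 29 (14.5%, against 11.5% of all tested probes) after quantile normalization, 37 (18.5% against 5.61%) without a filter on dim probes, 20 (10% against 5.00%) with an ordinary test per probe, which called 6 higher (3% against 4.06%), and 7 (3.5% against 0.915%) without scaling, which called 53 higher (26.5% against 44.4%). Normexp with the 75th percentile gave 48 higher (24%, against 1216 of the 11038 tested probes), and 21.5% lower against 27.6%. The cause was not tested. Leaving out 1 array gave 10 to 20 higher and 21 to 50 lower, against 6.92% to 11.9% and 5.42% to 11.3% of tested probes. All 6 fits kept 9 higher and 21 lower, a count not made over tested probes. Fewer arrays lower power by construction. In the reported fit the 100 brightest probes held 6 higher and 33 lower calls, and the 400 brightest held 47 and 82. Over all tested probes 12.8% were higher and 11.2% lower. Other list sizes change the counts by construction. The median log2 change was -0.42, and it was -0.13 after quantile normalization, -0.12 with normexp and quantile normalization, -0.25 in the scaled deposited table, -0.28 for 400 probes, 0.0243 with normexp and the 75th percentile and 0.53 without scaling, the last 2 of opposite sign. Without 1 array it was -0.45 to -0.33. Over all tested probes the median was -0.037 as reported, -0.064 after quantile normalization and -0.013 with normexp and quantile normalization. It was -0.22 in the scaled deposited table, -0.22 with normexp and the 75th percentile and 0.92 without scaling. The median of the 200 less that of all tested probes was -0.38 as reported and also without scaling. This difference was -0.032 in the scaled deposited table and 0.25 with normexp and the 75th percentile. The difference in signal share kept its direction under all alternatives, from -9.30 to -5.91 points. Each choice of probes by another setting gave 165 to 200 of the same probes, the lowest with the CoCl2 arrays alone, where probes with an outlier spot on a control array could enter. The replicate block was run although the numbers do not pair the arrays. It gave 19 higher calls (9.5%, against 1210 of its 11034 tested probes) and 42 lower (21% against 8.49%). Without scaling ASCRP4004008, ASCRP4006342, ASCRP4013042 and ASCRP4011502 had changes of 0.0797, 0.0345, 0.0908 and 0.21. After quantile normalization ASCRP4013042 had 0.0635, and with normexp and quantile normalization ASCRP4007626 had 0.0840 and ASCRP4011502 0.0550. None of these 7 changes passed. The quantile values are no check on direction, since probes of nearly fixed rank are set to nearly equal values there by construction. The ratios of summed signal without CoCl2 replicate 3 were added after seeing the data. The 2 rises and 2 falls kept their direction under all 20 alternatives; ASCRP4011603 always passed, and the other 3 missed the threshold only with the ordinary test (adjusted p up to 0.0567). Calls shared between scalings were not counted over all tested probes.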
